A study of Mus musculus with 24 samples.

Results

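The ventral prostate of 129X1 mice was compared with that of C57BL/6 mice on 8 of the 24 arrays of the series, 4 from each strain. The arrays were chosen by the strain in their titles, and all 22626 probe sets other than the manufacturer's controls entered. The series measured total RNA of the ventral prostate on Affymetrix mouse expression arrays in 6 inbred strains, with 4 biological replicates each, and its title places the work in a search for genes that modify cancer. Every mouse was wild type, 8 weeks old, on a standard diet and untreated. The labels give neither the substrain nor the number of animals behind an array, and RNA of the ventral lobe mixes that of its epithelium, stroma and vessels. In such bulk tissue, fewer cells of a type and less RNA per cell cannot be told apart.

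The ventral prostate is a tubular gland in which a layer of luminal cells secretes proteins into the seminal fluid, over a thin layer of basal cells and a sheath of smooth muscle. Luminal cells fold and glycosylate their products in the endoplasmic reticulum before secretion, and prostate epithelium handles zinc, which metallothioneins bind. Inbred strains carry fixed sequence differences throughout the genome, so that a comparison of untreated animals shows the standing differences between the strains in array signal. 129X1 and C57BL/6 both carry the b haplotype of the major histocompatibility complex, called H2 in the mouse, which encodes the class I and class II molecules that present peptides to T cells.

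A probe set is a group of short probes for a transcript, and a gene can have several. Whether sequence differences between the strains lie under the probes was not tested, so the differences given are those of probe set signal. Levels are the deposited intensities after each array was scaled to the same 2% trimmed mean, and tests used log2(intensity + 16). A gene is described by its brightest tested probe set that carries a single gene symbol. A probe set was called when its adjusted p in limma was under 0.05. Folds are the antilog of the difference on the log2(intensity + 16) scale, so that they understate the difference of faint transcripts. A probe set was tested if it lay above the 40th percentile of its own array on at least 4 of the 24 arrays; on the 8 arrays compared, that percentile was an intensity of 31.4 to 34. This left 15775 probe sets for 9431 genes. Counts of genes, and "not called", refer to that brightest probe set unless other probe sets are named. Where no array of one strain lay above its percentile, the difference on the log2(intensity + 16) scale depends on the pseudocount, and the fold is given as a bound, the mean of the brighter strain against the arrays of the other set at their own percentile. Levels of different genes are not compared with each other.

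The 8 arrays separated by strain: over the tested probe sets, arrays of 129X1 correlated with each other at 0.955 to 0.968, arrays of C57BL/6 at 0.963 to 0.966, and arrays of different strains at 0.923 to 0.935. Replicate 4 of 129X1 stood apart in skeletal muscle transcripts. The summed intensity of 13 skeletal muscle genes with a probe set, tested or not, was 3193 on that array. On the other 129X1 arrays it was 755 to 822. In C57BL/6 it was 1329 on replicate 4 and 429 to 749.6 on the others. The sum was therefore highest on replicate 4 in both strains, and counts are given without these arrays where they matter. Of 6 seminal vesicle genes measured, 5 lay below the percentile on all 8 arrays (Svs2, Svs3a, Svs4, Svs6 and Pate4), while the ventral lobe secretion genes Spink1 and Msmb were measured in both strains. Array number limits the precision, since arrays have no count depth.

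The 2 strains differed at 1813 of 15775 probe sets (11.5%), of which 952 (6.03%) were higher and 861 (5.46%) lower in 129X1. The median size of a called difference was 0.63 on the log2 scale. A difference of at least 2-fold was called at 322 probe sets (2.04%), 181 higher and 141 lower, and one of at least 4-fold at 57, 25 higher and 32 lower. The arrays of the 2 strains did not overlap at 2902 probe sets (18.4%), which included 1645 of the 1813 called and 315 of the 322 called at least 2-fold. The median difference over all tested probe sets was 0.02. Taken by gene, 1085 of 9431 (11.5%) were called at their brightest probe set, 596 (6.32%) higher and 489 (5.19%) lower, and 174 (1.84%) of them at least 2-fold. Among the 15 pairs of the 6 strains, whose numbers of called probe sets ran from 1084 to 3117, this pair ranked 7 in that number. With both replicate 4 arrays left out, a choice made after seeing the muscle transcripts, 1138 probe sets were called, and 1072 of the 1813 kept their call and direction.

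**Figure D1:**
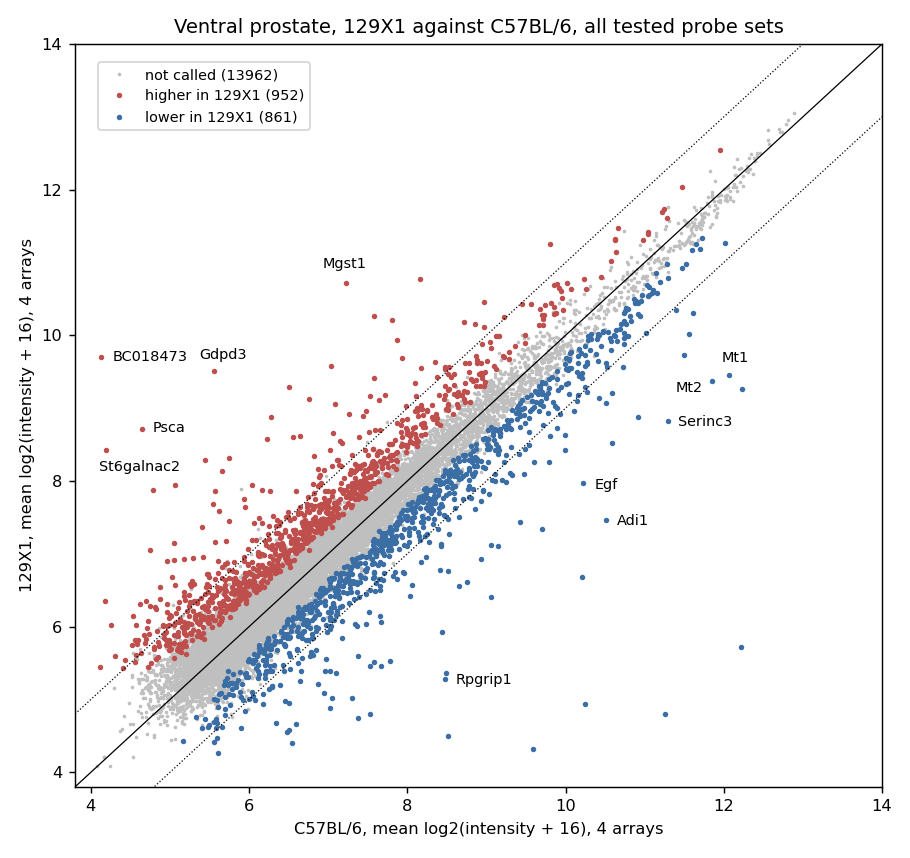
Mean log2(intensity + 16) of each of the 15775 tested probe sets in C57BL/6 (horizontal) and 129X1 (vertical), 4 arrays per strain; red points are the 952 called higher in 129X1, blue the 861 called lower, grey those not called, the solid line is equality and the dotted lines 2-fold. Most probe sets lie near the line of equality, while BC018473, St6galnac2 and Psca rise from the bottom of the C57BL/6 scale, and the metallothionein genes Mt1 and Mt2 lie below the line at high levels.

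The genes that were furthest above C57BL/6 in 129X1 included a pair on chromosome 11, a surface antigen of the prostate, detoxifying enzymes and a cell cycle gene. BC018473, annotated by RefSeq as a long noncoding RNA, had intensities of 687, 919.9, 847 and 821 on the 129X1 arrays and 1.58, 2.14, 1.35 and 1.06 on the C57BL/6 arrays. All C57BL/6 arrays were therefore at the bottom of the scale. BC018473 was at least 17.1-fold higher (adjusted p = 6.6e-20 in limma). St6galnac2, a sialyltransferase that acts on O-linked glycans, measured 361, 268, 325 and 369 in 129X1 and 1.84, 2.89, 2.31 and 2.18 in C57BL/6, again with no overlap, and was at least 7.10-fold higher (adjusted p = 2.46e-19). These transcripts lay above the percentile on the 129X1 arrays alone, as did 6 called probe sets in all; 5 did so on the C57BL/6 arrays alone. Over 17 alternative settings of the processing, of which the pseudocount moved it most, the log2 difference ran from 3.74 to 8.35 for BC018473 and from 2.57 to 6.65 for St6galnac2.

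Psca, prostate stem cell antigen, is a lipid-anchored surface protein of the Ly6 family. Its intensities were 341, 323, 389.5 and 627 in 129X1 and 8.22, 9.56, 8.61 and 9.66 in C57BL/6. Every C57BL/6 array was below its percentile, and replicate 4 was the highest of 129X1. Psca was at least 8.68-fold higher (adjusted p = 3.75e-10). Gdpd3, a phosphodiesterase of lysophospholipids, measured 621, 714, 672 and 849.8 in 129X1 and 30.2, 55.0, 33.5 and 14.0 in C57BL/6, a difference of 15.4-fold (95% interval 11.7 to 20.4), with 2 of the 4 C57BL/6 arrays above their percentile. Krt4, a keratin of stratified epithelia, was 7.16-fold (95% interval 4.56 to 11.3) higher in 129X1, at 8.28 ± 0.54 against 5.44 ± 0.69 (log2 mean ± SD, n = 4). Its arrays spread more within each strain than those of any other of the 15 genes, with no overlap between the strains.

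Mgst1, a membrane-bound glutathione transferase, measured 1383, 2021, 1809 and 1541 in 129X1 and 159.9, 124, 106 and 150.0 in C57BL/6. It was above the percentile on all 8 arrays and 11.3-fold (95% interval 8.68 to 14.7) higher (adjusted p = 1.83e-12). Gsta4, a cytosolic glutathione transferase for products of lipid peroxidation, was 4.44-fold (95% interval 3.46 to 5.69) higher, with 1 of the 4 C57BL/6 arrays above its percentile. Ccnd2 encodes cyclin D2, which drives the G1 phase of the cell cycle. Its intensities were 1176, 1144, 1350.0 and 1184 in 129X1 and 184, 222, 141 and 159.5 in C57BL/6. The arrays of each strain lay close together, Ccnd2 was 6.45-fold (95% interval 5.10 to 8.15) higher (adjusted p = 2.59e-11), and all 7 of its probe sets were called higher, with log2 differences of 1.12 to 2.69.

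Tac1, the precursor of substance P, measured 532, 646, 679.7 and 603 in 129X1 and 90.1, 84.1, 82.7 and 47.6 in C57BL/6 and was 6.96-fold (95% interval 5.44 to 8.90) higher. Ramp1, a subunit of the receptor for calcitonin gene-related peptide, was 3.95-fold higher, and B4galnt2, which adds N-acetylgalactosamine to glycans, 4.18-fold, with both of its probe sets called. The remaining genes of the 15 were Tmem87a, a Golgi membrane protein (at least 4.83-fold), the actin regulator Cap1 (6.04-fold, both probe sets called), Smarcd3, a subunit of a chromatin remodelling complex (4.89-fold), and Pglyrp1, which binds bacterial peptidoglycan (at least 1.68-fold). Tmem87a and Pglyrp1 were below the percentile on all 4 C57BL/6 arrays. In Pglyrp1, replicate 1 of 129X1, at 119, was above the other 3, at 48.2 to 55.0.

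The genes that were furthest below C57BL/6 in 129X1 included both broadly expressed metallothionein genes, a growth factor, a methionine salvage enzyme and intracellular sensors of bacteria. Metallothioneins are small cysteine-rich proteins that bind zinc and copper, and zinc induces them through metal response elements upstream of the gene. Because Mt1 and Mt2 are neighbours on chromosome 8 that differed by about the same amount, the bases before their RefSeq starts are shown, with the core of the metal response element (TGCACNC or TGCGCNC, either strand) in capitals. The sequences are those of the RefSeq reference in GRCm38.p6, on the plus strand, 250 bases each; no sequence of 129X1 was used here.

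Mt1, chr8:94178839-94179088 (+): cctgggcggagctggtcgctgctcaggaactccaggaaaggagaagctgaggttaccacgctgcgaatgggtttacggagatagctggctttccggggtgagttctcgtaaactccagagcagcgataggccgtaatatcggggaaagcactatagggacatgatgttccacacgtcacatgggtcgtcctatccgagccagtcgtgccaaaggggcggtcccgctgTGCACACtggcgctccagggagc

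Mt2, chr8:94172368-94172617 (+): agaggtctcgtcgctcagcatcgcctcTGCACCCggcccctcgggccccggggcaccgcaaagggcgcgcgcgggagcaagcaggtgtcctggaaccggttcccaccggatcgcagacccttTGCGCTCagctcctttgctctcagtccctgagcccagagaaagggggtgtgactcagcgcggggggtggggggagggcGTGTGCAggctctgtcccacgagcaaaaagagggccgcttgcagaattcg

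The core occurred 1 time in the window of Mt1, 23 bases before the annotated start, and 3 times in that of Mt2, at 223, 128 and 50 bases before it. It occurred in 21.4% of 32851 RefSeq promoter windows of this length, and 3 or more times in 1.26%. Of the other metallothionein and zinc transport genes tested, Slc30a7, also called lower, had no match. Genes that were not called held the core too, with 2 matches each in Slc30a2 and Slc30a4. Slc30a1, Slc30a5, Slc39a3 and Slc39a8, not called either, had 1 each. Mt3, Mtf1, Slc30a9, Slc39a1, Slc39a7 and Slc39a9 had no match and were not called. A match is a description of these letters, and bases downstream of the annotated start were not searched.

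Mt1 had intensities of 734, 853, 656 and 538 in 129X1 and 4155, 3938, 4610.0 and 4368 in C57BL/6. Mt2 had 562, 791, 539 and 734 in 129X1 and 3674, 3355, 3782 and 3906 in C57BL/6. Both were bright in every array, and every 129X1 array was far below the lowest C57BL/6 array. Mt1 was 6.09-fold (95% interval 4.98 to 7.47) lower in 129X1 (adjusted p = 3.17e-12), with both of its probe sets called, and Mt2 5.56-fold (95% interval 4.61 to 6.70) lower (adjusted p = 1.83e-12). The other 4 strains were above 129X1 as well: their means on the log2 scale were 11.10 to 12.07 for Mt1, against 9.45 ± 0.27 in 129X1, and 10.50 to 11.47 for Mt2, against 9.37 ± 0.27. Of 18 genes tested for metallothioneins and zinc transport, 3 were lower and none higher (16.7% called, against 11.5% of all genes; medians over the list and over all genes, -0.08 and 0.02). The third was Slc30a7, a zinc transporter of the Golgi (-0.90 ± 0.11, log2 difference ± SE, adjusted p = 3.1e-06). Mtf1, the zinc-sensing factor that binds metal response elements, had a difference of 0.04 (adjusted p = 0.905); it is named after its value was seen.

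Egf, epidermal growth factor, measured 237, 248, 218 and 234 in 129X1 and 1153, 1139, 1241 and 1189.5 in C57BL/6. The arrays of each strain were tightly grouped, and Egf was 4.79-fold (95% interval 3.91 to 5.87) lower in 129X1 (adjusted p = 4.14e-11). Adi1, the acireductone dioxygenase of methionine salvage, measured 138, 144, 202 and 164 in 129X1 and 1324, 1309.9, 1569 and 1592 in C57BL/6. It was 8.27-fold (95% interval 6.54 to 10.5) lower, and all 3 of its probe sets were called lower. Serinc3, a multipass membrane protein, measured 443, 444, 400.0 and 469 in 129X1 and 2548, 2359, 2534 and 2515 in C57BL/6. It was 5.51-fold (95% interval 4.55 to 6.68) lower at its brightest probe set, and all 5 of its probe sets were called lower, by log2 differences from -2.46 to -0.85.

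Naip6 and Naip5 belong to the NAIP family, whose members detect bacterial flagellin and secretion system proteins in the cytosol and start the inflammasome. Naip6 measured 63.7, 70.1, 103 and 81.5 in 129X1 and 370.2, 410.1, 401 and 362 in C57BL/6, and Naip5 26.9, 22.1, 13.6 and 23.6 and 107, 96.3, 106 and 94.6. No arrays overlapped, and Naip5 lay below the percentile on every 129X1 array. Naip6 was 4.25-fold (95% interval 3.26 to 5.54) lower and Naip5 at least 2.36-fold; their adjusted p values were 2.04e-08 and 2.09e-06. The 2 genes are similar in sequence, and probes of such relatives can measure both.

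Rpgrip1, a scaffold protein of the photoreceptor cilium, measured 17.8 to 28.4 in 129X1 and 305, 337, 343 and 381 in C57BL/6 and was at least 7.20-fold lower. Its second probe set had a difference of -0.71 and was not called. Cyp2b10, a cytochrome P450 known for its induction by phenobarbital, was 4.12-fold (95% interval 2.94 to 5.78) lower, with all 3 probe sets called. The others were the DNase Dnase1l2 (at least 3.20-fold, both probe sets called), the kinase Stk25 (4.44-fold), trehalase Treh (at least 1.89-fold), the protein kinase A inhibitor Pkig (4.19-fold, both probe sets), Trim34a (at least 1.83-fold) and Lratd1 (3.37-fold). Rpgrip1, Dnase1l2, Treh and Trim34a were below the percentile on all 4 arrays of 129X1.

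**Figure D2:**
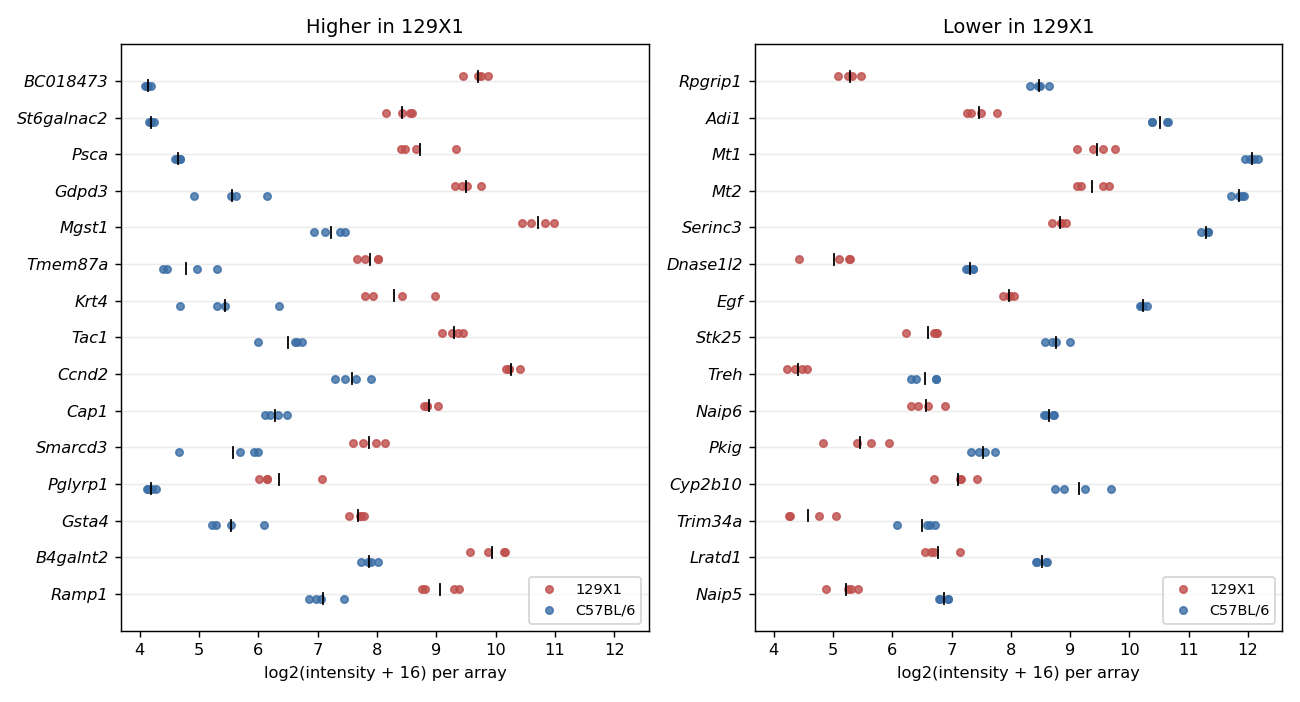
log2(intensity + 16) on each array (points; 129X1 red, C57BL/6 blue, black ticks are strain means) for 30 called genes whose arrays did not overlap, the 15 furthest above C57BL/6 in 129X1 (left) and the 15 furthest below (right). Folds of the genes above the percentile on at least 1 array of each strain range from 3.95 (Ramp1) to 15.4 (Gdpd3) on the left and from 3.37 (Lratd1) to 8.27 (Adi1) on the right; for the other 10 genes the fainter strain is below the percentile and the distance has no measured size.

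Non-overlap of the arrays was a condition for entering these 30 genes, so their two-sided exact permutation p of 0.0286 per gene, the smallest that 4 against 4 arrays can give, follows from the choice and is no further evidence. All 30 kept their call and direction under the 17 alternative settings, which included leaving out each array in turn and both replicate 4 arrays together.

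Large differences also belonged to probe sets that the platform annotation pairs with no single gene symbol, as it did for 170 of the 1813 called. Probe set 1431213_a_at measured 36.2, 38.1, 37.7 and 34.2 in 129X1 and 4410.2, 4599, 5945 and 4274 in C57BL/6, a log2 difference of -6.51. Probe set 1431214_at measured 8.35, 8.41, 8.49 and 25.5 and 2074, 2479, 2829.6 and 2362 and was at least 49.3-fold lower. The first was above the percentile on all 8 arrays and the second on none of 129X1. In the other direction, 1452418_at and 1453238_s_at were higher in 129X1 by 2.61 and 2.40. These 4 are named by probe set only, after their values were seen.

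The means of the other 4 strains were set beside those of the pair. For 6 of the 30 genes, all 4 other strain means were nearer to C57BL/6 than to 129X1. These were BC018473, St6galnac2, Mt1, Serinc3, Treh and Pkig. For 9 genes all 4 were nearer to 129X1: Tmem87a, Ccnd2, Gsta4, Rpgrip1, Adi1, Dnase1l2, Stk25, Lratd1 and Naip5. Serinc3 was at 8.83 ± 0.09 in 129X1, at 11.29 ± 0.05 in C57BL/6 and between 11.23 and 11.49 in the means of the other 4. Stk25 was the mirror image, at 8.76 ± 0.18 in C57BL/6, 6.61 ± 0.25 in 129X1 and 6.42 to 6.77 elsewhere. Tmem87a was at 4.78 ± 0.44 in C57BL/6 and between 7.76 and 7.97 in the other 4, with 129X1 at 7.87 ± 0.18. The remaining 15 genes were divided, such as Mgst1, at 10.50 in SWR and 10.82 in FVB but 7.96 in AKR and 7.99 in BALB/c. Over the 322 probe sets called at least 2-fold, the number with 0, 1, 2, 3 and 4 other strains nearer to 129X1 was 59, 69, 78, 56 and 60. These placements compare means and carry no test.

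Called genes also lay side by side. Of 1083 called genes that had a next tested gene on the chromosome in RefSeq order, 186 (17.2%) were followed by another called gene, where 11.5% of all genes were called; 116 of the 186 went the same way. Both neighbours were called at least 2-fold in the same direction in 8 pairs and in opposite directions in 1. The 8 pairs were Igfbp5 and Tns1 on chromosome 1, Rbm39 and Phf20, Tgm2 and Lbp, and Serinc3 and Pkig on chromosome 2, Mgst1 and Pik3c2g on chromosome 6, Mt2 and Mt1 on chromosome 8, St6galnac2 and BC018473 on chromosome 11, and Naip5 and Naip6 on chromosome 13. Phf20, a reader of methylated histones and p53, measured 379, 422, 306 and 465 in 129X1 and 136, 108, 109.8 and 117 in C57BL/6, a log2 difference of 1.60 ± 0.16 (SE). Its neighbour Rbm39, a splicing factor, differed by 1.15 ± 0.13 at its brightest probe set, but of its 9 probe sets 2 were called higher, 2 lower and 5 not. Tgm2, a transglutaminase, and Lbp, which binds bacterial lipopolysaccharide, differed by 1.28 ± 0.16 and 1.19 ± 0.10. Igfbp5, which binds insulin-like growth factors, and the focal adhesion protein Tns1 differed by 1.30 ± 0.15 and 1.05 ± 0.21. Pik3c2g, a class II phosphoinositide kinase, differed by 1.08 ± 0.17. The neighbour relation was not tested against any model of the genome, and related sequences such as Naip5 and Naip6 also lie side by side.

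Among the gene groups examined, genes that fold and inspect proteins in the endoplasmic reticulum had the most members lower in 129X1. Of 32 tested, 15 were lower and 1 higher, where 5.19% and 6.32% of all genes were; the median difference was -0.35, against 0.02 over all genes. Edem1, which helps to route misfolded glycoproteins to degradation, measured 317, 325, 282 and 249.8 in 129X1 and 767, 762, 849.6 and 675 in C57BL/6. No arrays overlapped, and Edem1 differed by -1.34 ± 0.16 (log2 difference ± SE, adjusted p = 3.42e-06). Pdia6, a protein disulfide isomerase, measured 892, 1058, 1155 and 1023 in 129X1 and 1994, 1981, 2177 and 2063 in C57BL/6 and differed by -0.99 ± 0.16 (adjusted p = 0.000121), while its second, fainter probe set was called higher in 129X1 (0.44, adjusted p = 0.0493, with overlapping arrays). Sdf2l1 and Creld2, both proteins induced by endoplasmic reticulum stress, were lower too: Sdf2l1 measured 192, 287, 247 and 127 in 129X1 and 436, 391, 479.6 and 398 in C57BL/6 (adjusted p = 0.000982), and Creld2 differed by -0.95 ± 0.21. The disulfide isomerase P4hb and the chaperone Hspa5 had differences of -0.28 and -0.20 and were not called (adjusted p = 0.162 and 0.533). The higher gene was the oxidase Ero1a (0.42, adjusted p = 0.0383), which is named after its value was seen and whose call was lost in 9 of 17 alternatives.

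The summed intensity of the 32 genes was 24386 to 30336 on the 129X1 arrays and 32644 to 37572 on the C57BL/6 arrays, without overlap. That of 20 genes of androgen response and luminal cells, tested or not, was 12237 to 13586 in 129X1 and 13345 to 14821 in C57BL/6, with overlap. The number of lower genes was 10 to 15 when single arrays were left out, lowest without replicate 1 of 129X1 or replicate 2 of C57BL/6, and 9 without both replicate 4 arrays. Markers of basal epithelium and of smooth muscle were higher in 129X1, with sums given beside them, and their part in this difference was not tested.

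Many genes of this group carry the endoplasmic reticulum stress response element, which the factors ATF6 and NF-Y bind and which raises their transcription when unfolded proteins accumulate. The element was searched as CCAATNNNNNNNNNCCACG on either strand of the 250 bases before each RefSeq start (GRCm38.p6) and was found in 0.113% of 32851 promoter windows (37). Of 27 tested genes of the group with a promoter entry, 10 held it: 6 of the 14 called lower, 4 of the 12 not called, and not the 1 called higher. The matches are shown in capitals with 12 bases on each side, read along the gene's own strand, because they mark which members of the group share this element. Those called lower come first.

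Calr, chr8:84847063-84847105 (-): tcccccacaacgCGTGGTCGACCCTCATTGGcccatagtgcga

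Derl3, chr10:75893230-75893272 (+): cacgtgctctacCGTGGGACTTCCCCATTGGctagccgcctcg

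Hsp90b1, chr10:86705626-86705668 (-): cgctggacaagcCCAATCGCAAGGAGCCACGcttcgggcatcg

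Hsp90b1, chr10:86705521-86705563 (-): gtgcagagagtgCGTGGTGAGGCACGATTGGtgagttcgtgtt

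Pdia6, chr12:17266479-17266521 (+): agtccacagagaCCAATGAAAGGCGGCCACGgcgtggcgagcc

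Dnajc3, chr14:118937815-118937857 (+): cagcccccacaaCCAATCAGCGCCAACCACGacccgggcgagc

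Creld2, chr15:88819508-88819550 (+): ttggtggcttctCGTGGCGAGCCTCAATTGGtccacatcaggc

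The genes with a match that were not called were Hspa5, Canx, Ero1b and Syvn1.

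Hspa5, chr2:34772013-34772055 (+): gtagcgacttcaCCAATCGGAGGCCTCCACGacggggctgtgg

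Canx, chr11:50325788-50325830 (-): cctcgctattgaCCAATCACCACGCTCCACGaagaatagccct

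Ero1b, chr13:12565670-12565712 (+): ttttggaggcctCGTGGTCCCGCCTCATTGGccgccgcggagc

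Syvn1, chr19:6046520-6046562 (+): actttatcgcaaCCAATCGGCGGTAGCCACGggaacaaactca

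Among these 10, the differences of the chaperones Calr and Hsp90b1 were -0.39 and -0.51, those of Derl3, Dnajc3 and Pdia6 -0.68, -0.60 and -0.99, and that of Creld2 -0.95; the second probe set of Pdia6 was called in the other direction. The genes that were not called ranged from -0.45 to -0.07 at their brightest probe set, but Hspa5 and Ero1b each had another probe set called lower (-0.60 and -1.30). These genes are named for their match, after their values were seen. The call of Calr was lost in 9 of 17 alternatives and that of Dnajc3 in 6. Edem1, the gene of the group with the largest difference, had no match of these letters in its window.

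Markers of basal epithelium and of smooth muscle were higher in 129X1. Of 8 tested basal markers, 5 were higher and none lower, with a median difference of 0.89, so that 62.5% were called against 11.5% of all genes; 3 more (Krt17, Sfn and Lgals7) lay below the percentile on all 8 arrays. Krt5, a keratin of basal cells, measured 219.7, 217, 267 and 172 in 129X1 and 83.2, 84.2, 77.9 and 76.2 in C57BL/6. Its partner Krt14 measured 50.1, 79.6, 66.8 and 70.1 and 19.9, 8.24, 6.85 and 7.02. Krt15 measured 514, 392, 504 and 466 and 138, 146, 131 and 133. None of these 3 probe sets overlapped between the strains, and their log2 differences were 1.27 ± 0.15, 1.65 ± 0.19 and 1.66 ± 0.19 (SE), with adjusted p of 1.53e-06, 1.25e-06 and 1.34e-06. Krt14 was below the percentile on every C57BL/6 array, which makes it at least 1.69-fold higher; of its other 2 probe sets 1 was called higher and 1, at a mean intensity of 36.4 in 129X1 and 34.9 in C57BL/6, was not (0.05, adjusted p = 0.9), with overlapping arrays. Col17a1, a hemidesmosome collagen, differed by 1.30, and the hemidesmosome linker Dst, named after its value was seen, by 0.50. Col17a1, among the 5 called, was also below the percentile on every C57BL/6 array. Its difference therefore depends on the pseudocount, and the bound on its fold lay close to equality. Trp63, the transcription factor that marks basal cells, and the integrin Itgb4 had differences of 0.23 and 0.19 and were not called (adjusted p = 0.344 and 0.586). The summed intensity of the 11 basal genes with a probe set, tested or not, was 957 to 1135 in 129X1 and 397 to 465 in C57BL/6. Of the 8 tested, 4 or 5 were called whichever single array was left out. Dst lost its call without replicate 4 of 129X1, and 5 genes were called without both replicate 4 arrays.

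Of 16 smooth muscle genes, 10 were higher and none lower (62.5% called, against 11.5% of all genes), with a median of 0.56, and all 16 differences were positive. Myh11, the smooth muscle myosin heavy chain, measured 665, 863, 801 and 763 in 129X1 and 541, 399, 298 and 504 in C57BL/6; replicates 1 and 4 were the highest of C57BL/6, and the strains did not overlap. Myh11 differed by 0.83 ± 0.19, filamin Flna by 0.74 ± 0.16, tropomyosin Tpm1 by 0.73 ± 0.13 and the myosin light chain Myl9 by 0.69 ± 0.15. Tpm2 and Cald1, with 0.51 and 0.47, were not called (adjusted p = 0.121 and 0.254), although 1 of the 3 probe sets of Tpm2 was called higher (0.75). The number called was 6 without replicate 3 of 129X1 and 6 without replicate 3 of C57BL/6, 12 without replicate 4 of C57BL/6, and 9 without both replicate 4 arrays. The summed intensity was 12371 to 16493 in 129X1 and 8557 to 11882 in C57BL/6. The part that the amount of stroma or of basal cells on an array has in the other differences was not tested.

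**Figure D3:**
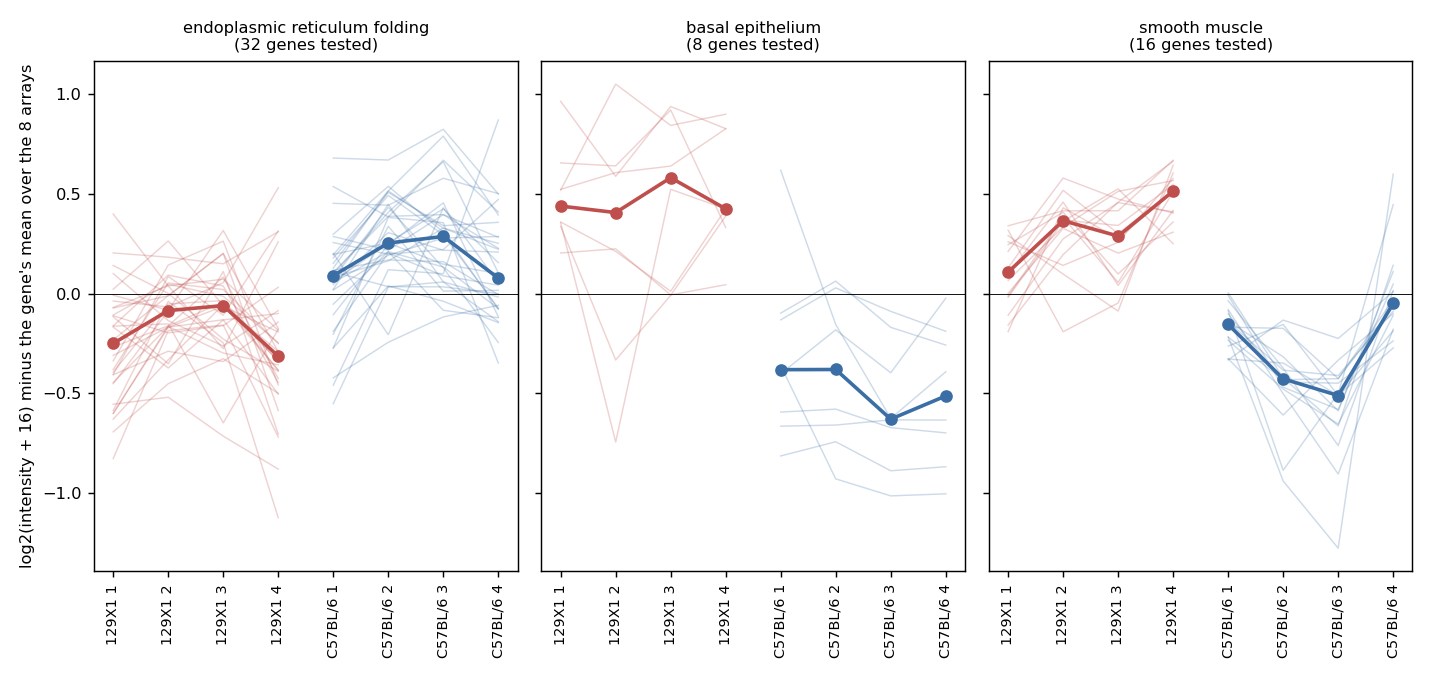
Each thin line is a gene of the list, given as its log2(intensity + 16) on each of the 8 arrays minus its mean over them, for genes of endoplasmic reticulum folding (32), basal epithelium (8) and smooth muscle (16); thick lines with points are the list medians (129X1 red, C57BL/6 blue). The medians are lower in 129X1 for endoplasmic reticulum folding and higher for basal epithelium and smooth muscle, and in smooth muscle replicate 4 is the highest array of each strain.

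Markers of other stromal and blood cells had smaller shares called than those of basal epithelium and smooth muscle. Against 11.5% of all genes, the share called was 9.09% for skeletal muscle, 11.1% for endothelial, 23.1% for macrophage and 25% for lymphocyte genes. Of only 2 red blood cell genes tested, Alas2 was higher (1.08, 50% called) and Hba-a1 was not called (0.28). Among 18 genes of fibroblasts and extracellular matrix, 5 were higher and 1 lower (33.3% called, against 11.5% of all genes; median 0.23), and the number higher was 1 without replicate 2 of C57BL/6, 2 without replicate 1 of C57BL/6, 2 without replicate 4 of 129X1, 3 without replicate 2 or 3 of 129X1 or replicate 3 of C57BL/6, and 2 without both replicate 4 arrays. The collagens Col1a1, Col1a2 and Col6a1 differed by 0.76, 0.61 and 0.60, while Col6a3 was lower (-0.65). The 10 adipocyte genes with a probe set, tested or not, had a summed intensity of 545 to 1105 in 129X1 and 364 to 403 in C57BL/6. None of the 8 tested was called in limma, with 2 at an unadjusted p under 0.05. Car3, a carbonic anhydrase of fat and muscle, was at 3.99-fold (95% interval 1.49 to 10.7) in 129X1 over C57BL/6 (adjusted p = 0.0629). When only the 8 arrays of the 2 strains were fitted, 4 of these 8 were called higher. Of 11 skeletal muscle genes, Actn3 alone was called (1.35), and not without replicate 4 of 129X1; 3 were called without replicate 4 of C57BL/6. The endothelial marker Pecam1 was higher (0.84, 1 of 9 tested), with overlapping arrays, and lost its call without replicate 4 of 129X1 or replicate 1 or 3 of C57BL/6. Of 13 macrophage genes Cd14 was higher (0.57) and Ctsc and C1qc lower (-0.76 and -0.40); C1qc lost its call without replicate 1 or 3 of 129X1, replicate 2 or 3 of C57BL/6 or both replicate 4 arrays, and Ctsc without the last. The lymphocyte genes Ptprc and Ms4a1 were higher (0.61 and 0.67, 2 of 8 tested), and both lost their call without replicate 4 of 129X1 and without replicate 3 of C57BL/6. Ptprc marks all leukocytes and Ms4a1 B cells. The other B cell genes tested, Cd79b (0.65), Cd79a (0.40), Jchain (-0.50) and Ighm (-0.95), were not called. Neither were Cd3e of T cells (-0.29) and Gzmb (0.45), while the T cell genes Cd3d, Cd4 and Cd2 were below the percentile on all 8 arrays.

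Secreted products of the ventral lobe differed in both directions. Of 12 tested, 3 were higher and 2 lower (41.7% called, against 11.5% of all genes; median 0.28). Besides Tac1, clusterin (Clu), an extracellular chaperone, measured 1335, 1019.8, 1143 and 904 in 129X1 and 538, 447, 472 and 486 in C57BL/6 and differed by 1.14 ± 0.15 (adjusted p = 6.38e-06). Agr2, a disulfide isomerase of secretory cells, measured 762, 891, 822 and 530.2 in 129X1 and 1628, 1611, 1776 and 1684 in C57BL/6 and differed by -1.16 ± 0.17 (adjusted p = 2.75e-05). Azgp1, a secreted zinc-binding glycoprotein, differed by -1.04 ± 0.13 and Gpx3, the extracellular glutathione peroxidase, by 0.87 ± 0.16. None of these 4 overlapped between strains. Spink1, a protease inhibitor of the secretion, and Msmb, microseminoprotein, had differences of 0.27 and 0.44 and were not called (adjusted p = 0.395 and 0.161). Of 18 genes of androgen response and luminal identity, 22.2% were called, against 11.5% of all genes. The metalloreductase Steap4 (1.81) and the protease Tmprss2 (0.78) were higher, and the transcription factor Spdef (-0.58) and the keratin Krt18 (-0.48) lower. Among 7 tested genes of the dorsolateral and anterior lobes, Krt4 was higher and Serpinb11 (-1.51) and Crabp1 (-0.94) lower (42.9% called, against 11.5% of all genes). Probasin, Pbsn, had a difference of 0.19 (adjusted p = 0.824).

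In glutathione metabolism and detoxification, 7 of 35 tested genes were higher and 1 lower (22.9% called, against 11.5% of all genes; median 0.14). The higher genes were Mgst1, Gsta4, Gpx3 and Blvrb, which reduces biliverdin (1.69 ± 0.19), and 3 more: Gsto1 (0.84), Gclc, which catalyses the first step of glutathione synthesis (0.52), and Gstk1 (0.48). Gstm6 was lower (-0.83); it and the last 3 are named after their values were seen. No gene of the group was called lower without replicate 1, 3 or 4 of 129X1, replicate 1 or 4 of C57BL/6 or both replicate 4 arrays. The antioxidant genes Sod1 and Gpx1 had differences of 0.25 and -0.03 and were not called. Beside St6galnac2 and B4galnt2, the glycosylation enzymes Galnt11 (0.59) and B3gnt2 (0.42) were higher and B4galnt1 (-0.58) and Fut2 (-1.13) lower. These were 6 of 31 tested (19.4%, against 11.5% of all genes), and the list median was 0.02. Galnt11 lost its call without replicate 4 of 129X1 or replicate 1 of C57BL/6, Fut2 in 10 of 16 alternatives, and B3gnt2 and B4galnt1 are named after their values were seen. The 15 enzymes of that list that lay below the percentile on all 8 arrays included St6galnac1 and St6galnac4.

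Groups of general cell functions are read against the 11.5% of all genes called. None of 31 proteasome genes was called in limma at its brightest probe set, and 3 had an unadjusted p under 0.05, with differences from -0.28 to 0.33; another probe set of Psmd6, a lid subunit of the proteasome, was called lower (-2.72). Of 36 genes of mitochondrial respiration, 3 were higher, 8.33% (Atp5a1, 0.63; Ndufa5, 0.52; Ndufa1, 0.35). Of 25 cytosolic ribosomal protein genes, Rpl22 (-1.36), Rps6 (-1.22) and Rpl14 (-0.65) were lower, 12% of the group, while Rps18 and Rpl4 had -0.01 and -0.18. Only 1 of the 25 differences was positive, and the list median was -0.16. Counting any probe set, 6 of these genes had one called lower and 1 had one called higher. Ribosomal protein genes have near-identical processed copies, so that these values are uncertain by gene. In the synthesis of cholesterol and fatty acids, 3 of 21 (14.3%) were lower, where 5.19% of all genes were: Sc5d (-1.61 ± 0.13), Msmo1 (-0.67 ± 0.16) and Dhcr7 (-0.54 ± 0.14), all late enzymes of the sterol pathway; only Sc5d was called without both replicate 4 arrays. Of 16 heat shock genes, the small heat shock protein Hspb8 (-0.63) and its partner Bag3 (-0.52) were lower (12.5%). Of 21 immediate early genes, 19% were called: Ccn2, Ccn1, Dusp1 and Ier3 were higher (2 of the 4 without both replicate 4 arrays), by 1.47, 0.79, 0.74 and 0.70, whereas Jund and Btg2 were not called (0.17 and -0.27).

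Genes tied to prostate cancer or to the cell cycle were a group of interest given the title of the series. Of 34 tested, 5 were higher and 1 lower (median 0.04), so that 17.6% were called against 11.5% of all genes. Besides Psca and Ccnd2, these were the metalloproteinase inhibitor Timp3 (293, 379, 256 and 528 in 129X1, 134, 119, 117 and 147 in C57BL/6, difference 1.34 ± 0.19), the vitamin D receptor Vdr (1.17) and the receptor kinase Erbb2 (0.49). Timp3 did not overlap between the strains. The damage kinase Atm was lower (-0.83 ± 0.17, adjusted p = 0.00184). Erbb2 and Atm are named after their values were seen. The call of Vdr was lost in 5 of 16 alternatives, all of them with arrays left out. The number higher was 3 without replicate 1 of 129X1, without replicate 3 or 4 of C57BL/6 and without both replicate 4 arrays. Ctnnb1 (0.02) and Foxa1 (-0.10) were not called, but 1 of the 3 probe sets of Ctnnb1 was called higher (0.43). Of 18 proliferation genes only Mcm5 was higher (0.73), 5.56% called against 11.5% of all genes. Among 7 tested genes of the Ly6 family and progenitor surface markers, Psca, Cd44 (0.72) and Ly6d (0.57) were higher (42.9% called, against 11.5% of all genes). Only these 3 differences were positive, and the list median was -0.14. Cd44, whose arrays overlapped, lost its call without replicate 3 of C57BL/6 or both replicate 4 arrays, and Ly6d without replicate 1 of 129X1 or replicate 1 or 2 of C57BL/6.

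**Figure D4:**
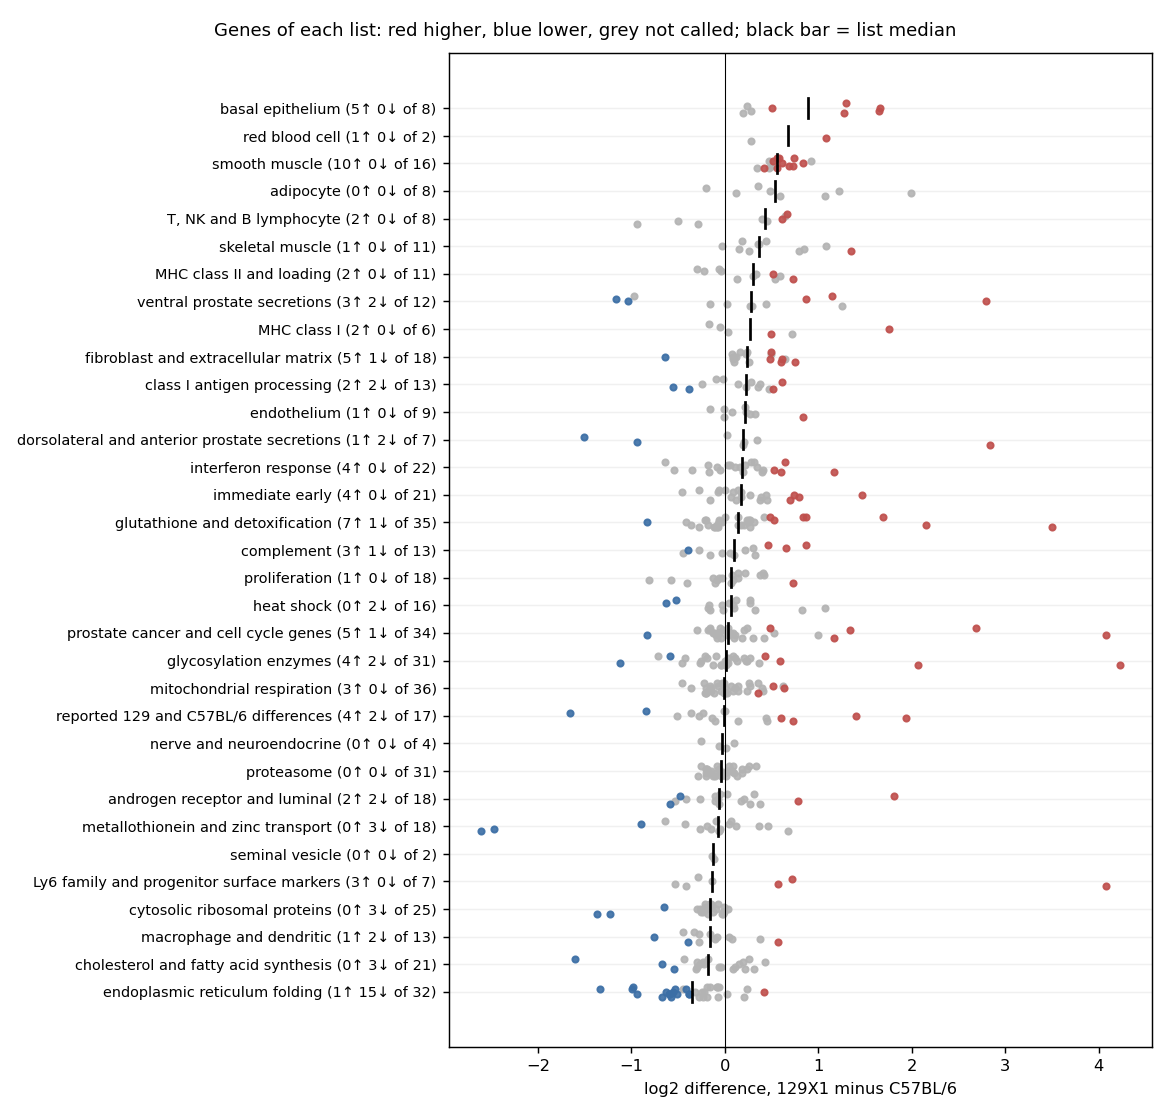
log2 difference (129X1 minus C57BL/6) of every tested gene in each gene list, ordered by the list median (black bar); red points were called higher in 129X1, blue lower, grey not called, and the numbers beside each list give the genes called higher and lower of those tested. Basal epithelium (median 0.89), red blood cell (0.68, 2 genes tested), smooth muscle (0.56) and adipocyte (0.54, none called) lie toward higher values. Lymphocyte (0.43) and skeletal muscle (0.37) genes also have medians above 0. Endoplasmic reticulum folding (-0.35) lies toward lower values, and most other lists are centred nearer 0.

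Because both strains are b haplotype, the histocompatibility genes were examined one by one. In class I, 2 of 6 tested genes (33.3%) were higher in 129X1 and none lower, where 6.32% of all genes were higher. H2-Q10, a class I gene whose product is secreted, measured 801, 775, 809 and 863 in 129X1 and 209.8, 178, 307 and 238 in C57BL/6. The 129X1 arrays lay close together and apart from C57BL/6, with a difference of 1.76 ± 0.24 (adjusted p = 1.52e-05). The classical gene H2-K1 measured 3455, 2915, 4353 and 3025 and 2001, 2729, 2355 and 2612 and differed by 0.49 ± 0.15 (adjusted p = 0.0384); the arrays did not overlap, but the call was lost in 8 of 17 alternatives, so that 1 class I gene was higher without replicate 1 or 3 of either strain or both replicate 4 arrays. Without replicate 2 of C57BL/6, 3 were higher. Of the 4 probe sets of H2-K1, 2 were called higher and 2 not, with differences of 0.19 to 0.61. The classical gene H2-D1 had a difference of 0.04 ± 0.15 (adjusted p = 0.919), and of its 8 probe sets 1 was called lower and 7 not. H2-Bl (0.72, adjusted p = 0.0643), H2-T3 (-0.05) and H2-M3 (-0.17) were not called. Class I genes are similar in sequence, so that values by gene are uncertain. Among 13 genes that process class I peptides, 30.8% were called, against 11.5% of all genes. The immunoproteasome genes Psme1 (0.61 ± 0.13) and Psmb8 (0.52 ± 0.14) were higher, the latter not without replicate 3 of 129X1 or replicate 2 of C57BL/6. Pdia3 and Calr were lower, and B2m was not called at its brightest probe set (0.47, adjusted p = 0.0746) but was called higher at its other (0.69).

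In class II, 2 of 11 tested genes (18.2%) were higher and none lower, where 6.32% of all genes were higher and 11.5% were called in either direction. H2-Aa, an alpha chain, measured 556, 531, 797 and 646 in 129X1 and 364, 337, 405 and 375 in C57BL/6 and differed by 0.73 ± 0.18 (adjusted p = 0.00732). Its other probe set was not called (0.63). H2-Eb1, a beta chain, measured 333, 343, 369.8 and 327 and 205, 259, 248 and 230.1 and differed by 0.52 ± 0.14 (adjusted p = 0.0173); its call was lost without replicate 3 of 129X1, replicate 1 of C57BL/6 or both replicate 4 arrays. Neither gene overlapped between the strains. The invariant chain Cd74 (0.33), H2-Ab1 (0.59), H2-DMb2 (0.53), H2-DMa (-0.06) and H2-Oa (0.30) were not called, nor were the lysosomal enzymes Ctss (-0.30) and Ifi30 (0.13) or the activator Ciita (-0.22). H2-Ab1 had 3 probe sets, and the faintest, below the percentile on every C57BL/6 array, was called higher (1.23, adjusted p = 0.000171), without overlap. H2-Ea, the alpha chain that mice of the b haplotype are known not to transcribe, was below the percentile on all 8 arrays, at 4.68 ± 0.24 in 129X1 and 4.72 ± 0.54 in C57BL/6, against 7.58 ± 0.35 in BALB/c (log2 mean ± SD, n = 4) and means of 4.93 in AKR and 5.21 in FVB, with SWR between these. Low signal at the single H2-Ea probe set was therefore not particular to 129X1 and C57BL/6. Whether it reflects absence of the transcript was not tested. Over the other 14 pairs of strains, which share arrays with each other and with this pair, 0 to 4 of the 6 class I genes and 0 to 5 of the 11 class II genes were called.

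**Figure D5:**
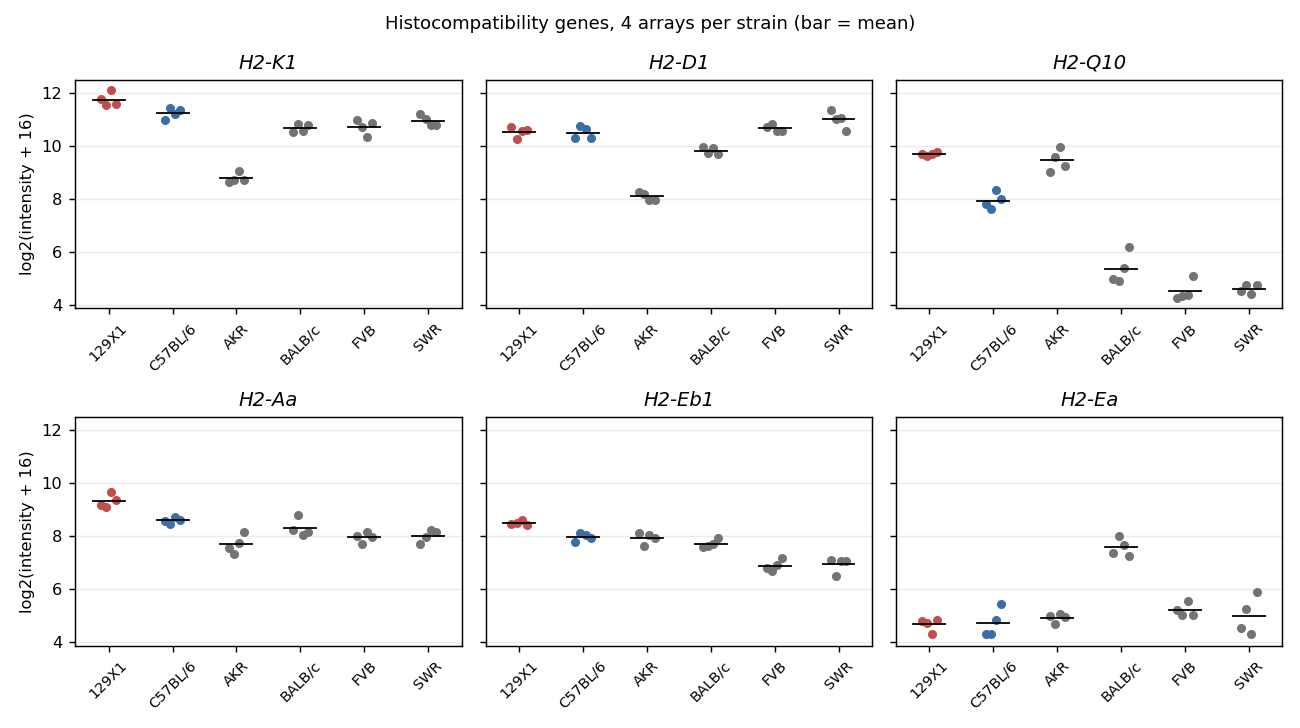
log2(intensity + 16) of 3 class I (top) and 3 class II (bottom) histocompatibility genes on each of the 24 arrays, 4 per strain, with the strain mean as a bar (129X1 red, C57BL/6 blue, other strains grey). H2-Q10, H2-K1, H2-Aa and H2-Eb1 are higher in 129X1 than in C57BL/6, H2-D1 overlaps, and H2-Ea is at the bottom of the scale in both strains and highest in BALB/c.

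Of 22 interferon-responsive genes, 4 were higher and none lower (18.2% called, against 11.5% of all genes; median 0.18). Irf7, a transcription factor that amplifies the interferon response, measured 386, 201, 351 and 139 in 129X1 and 120.3, 106, 89.3 and 93.7 in C57BL/6. All 129X1 arrays were above C57BL/6, but replicates 1 and 3 were far above 2 and 4. Irf7 differed by 1.17 ± 0.21 (adjusted p = 0.000515). Oasl1 (0.65), Ifi35 (0.60) and Gbp2 (0.52) were also called, the first 2 not in 12 of 17 alternatives each; Irf1 and Oas1a were not (0.16 and 0.34). The number called was 1 without replicate 1 of 129X1, 7 without replicate 4 of 129X1, 2 without any other single array and 4 without both replicate 4 arrays. The summed intensity of the list was 3402, 2548, 3358 and 1971 on the 129X1 arrays and 2186 to 2475 in C57BL/6, so that 1 array of 129X1 lay below all of C57BL/6. Of 13 complement genes, 30.8% were called, against 11.5% of all genes. C1s1 (0.87), C1ra (0.66) and Serping1 (0.46), which start or restrain the classical pathway, were higher and C1qc lower. Only C1s1 of the 3 was higher without both replicate 4 arrays.

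Genes for which differences between 129 substrains and C57BL/6 are known from other tissues were also compared. Of 17 tested, 4 were higher and 2 lower in 129X1 (35.3% called, against 11.5% of all genes). Wdfy1, an endosomal adaptor, measured 131, 81.1, 91.6 and 117 in 129X1 and 13.9, 21.9, 21.8 and 6.16 in C57BL/6 and differed by 1.94 ± 0.17 (adjusted p = 1.76e-08); with every C57BL/6 array below its percentile, it was at least 2.46-fold higher. Pam, which amidates peptides, measured 361, 384, 392 and 307 and 106, 133, 111 and 159 and differed by 1.41 ± 0.17 (adjusted p = 3.25e-06). Nnt, the mitochondrial transhydrogenase that is partly deleted in the J substrain of C57BL/6, measured 315, 339, 336 and 294 in 129X1 and 190.1, 181, 177 and 199.6 in C57BL/6 and differed by 0.73 ± 0.13 (adjusted p = 0.000297). None of these 3 overlapped between the strains. The other probe set of Nnt was not called (0.54), and of the 3 probe sets of Wdfy1, 2 were called higher and 1 not. Ahr, the receptor for dioxin, was higher by 0.60, with 1 of its 2 probe sets called, and Naip2, of the family of Naip5, was lower (-0.85). Nnt and Ahr are named after their values were seen. Glo1 and Ide had differences of -0.01 and -0.11 and were not called. Casp4, Ifi202b, Ifi204, Cd244a, Ly9 and Cd48 were below the percentile on all 8 arrays.

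Where a gene had several tested probe sets, they often did not all pass the test. Of 442 genes that were called at their brightest probe set and had another tested, 209 (47.3%) had another called in the same direction, 225 had no other called and 11 had one called in the opposite direction, some of them beside another in the same direction. Of the 65 such genes that were called at least 2-fold, 46 (70.8%) had another called in the same direction and 1 in the opposite direction. Of 3315 genes with 2 or more tested probe sets, 12 had probe sets called in both directions. Of the 32 genes of endoplasmic reticulum folding, 18 had at least 1 probe set called lower and 4 at least 1 called higher. The genes Actn3, Blvrb, Col17a1, Fut2, Gstm6, Mcm5, Naip2, Rpl14 and Vdr were below the percentile on all 4 arrays of the fainter strain, so that their differences depend on the pseudocount; the bounds on their folds were at most 1.64 (Blvrb), with none for Fut2 and Mcm5.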

How the data were processed

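The authors deposited 1 table of intensities for 22690 probe sets on 24 arrays, summarised with MAS5 per the submitters' processing notes; the genome build and further steps are not given in the sources used here. Each array was rescaled so that its 2% trimmed mean was 98.73 (97.4 to 105 before, on the 8 arrays), and log2(intensity + 16) was fitted in limma 3.58.1 (R 4.3.3; 18 residual degrees of freedom) with 1 coefficient per strain over all 24 arrays. The contrast of 129X1 against C57BL/6 was tested two-sided by limma's moderated test, with Benjamini-Hochberg adjustment over 15775 probe sets at 0.05. Control probe sets (64) and 6851 below the filter were left out. Symbols came from the platform annotation, updated through RefSeq (GRCm38.p6): 14444 tested probe sets had 1 symbol, 492 several and 839 none, and 14428 matched.

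Named were the 15 largest called differences in each direction whose arrays did not overlap, up to 4 called genes (largest difference) and 2 not called (highest mean) per list, all measured histocompatibility genes, and neighbouring genes both called at least 2-fold in 1 direction. Members and lists were chosen with earlier results of these data known. Replicate numbers did not pair the arrays (same-number correlations of deviations -0.0914 to 0.00364 over 4 pairs), and no arrays were identical. The labels call replicates biological, without saying whether each is 1 animal, so p-values measure the spread between arrays. The limma fit alone was checked on simulated data. Those were independent normal values in which 67, 67 and 66 of 15775 probe sets were changed by 1.5-fold, 2-fold and 4-fold. There the fit recovered 40.3% of 1.5-fold, 77.6% of 2-fold and 100% of 4-fold changes and called 9 unchanged probe sets. A smaller share was changed than was called in the data. The adjustment depends on that share, so that recovery in this comparison can differ. A gene that was not called can therefore differ. Alternatives varied the scaling, pseudocount, filter, arrays fitted, replicate block, probe set rule and the test.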

Additional observations from a re-analysis of the deposited data

Results flagged for a closer look

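Among 408 groups of 4 arrays (204 genes in each strain), 15 held an array whose gap to the nearest other, divided by the group's range, was above Dixon's critical value. Chance alone does so in about 1 group in 20. Values are log2(intensity + 16), with the other 3 arrays of the strain in brackets.

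In 129X1, replicate 1 was the array apart in 5 genes: Pglyrp1 at 7.08 (6.00 to 6.15), H2-DMb2 at 6.11 (6.44 to 6.46), Cd74 at 8.62 (8.89 to 8.94), Tmprss2 at 9.29 (9.12 to 9.15) and Esam at 6.57 (6.75 to 6.78). Replicate 4 was apart in 3, with Stk25 at 6.23 (6.71 to 6.76), Acta1, the skeletal muscle actin, at 8.97 (7.73 to 7.89) and Cr1l at 8.57 (8.03 to 8.04). Replicate 3 was apart in Sec63, at 6.87 (7.34 to 7.37).

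In C57BL/6, replicate 2 was apart in H2-M3 at 6.75 (6.44 to 6.49), Dhcr7 at 6.05 (6.42 to 6.45) and Vdr at 5.22 (4.52 to 4.62). Replicate 1 was apart in Krt14 at 5.17 (4.51 to 4.60) and Mcm5 at 4.17 (5.03 to 5.16). Replicate 4 was apart in Tac1, at 5.99 (6.63 to 6.73).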

How the results depend on the processing

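With a pseudocount of 64 the number of probe sets called at least 2-fold was 132 rather than 322, since a larger pseudocount shrinks folds. Without both replicate 4 arrays, 1138 probe sets were called, 585 higher and 553 lower; fewer arrays entered that fit. Leaving out 1 array at a time gave 1386 to 1568 called, 714 to 828 higher, 662 to 740 lower, 304 to 338 at least 2-fold and 95 to 112 gene list members called (116 with all arrays). The 30 genes with the largest differences stayed called in every setting. With the replicate number as a block, although the numbers do not pair the arrays, 1765 were called, 934 higher and 831 lower, 318 at least 2-fold. The other settings gave 1704 to 1969 called. With no rescaling 58.6% of calls were higher, with quantile normalization 50.5%, against 52.5%. No probe set called at least 2-fold turned sign in any setting. Of 1188 counts over single gene lists under the alternatives, 149 were outside 1.5 times the reported count. Faint signal over background limits the folds of transcripts below the percentile.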
